A study of Mus musculus with 17 samples.

Results

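Cells take up glucose, amino acids and monocarboxylates (lactate, pyruvate, ketone bodies) through a limited number of carrier families. The mouse genes of these families were followed here in kidneys of increasing age and in senescent tubular cells. The set comprised the 100 protein-coding genes whose symbols begin with Slc1a, Slc2a, Slc3a, Slc5a, Slc6a, Slc7a, Slc16a, Slc36a or Slc38a, out of 53313 genes that had been counted in every library. RNA sequencing counts were available for 17 libraries. Of these, 8 came from primary tubular epithelial cells (PTEC), cultured after collagenase digestion of kidneys of C57BL/6JRj mice. The PTEC comprised 4 non-senescent cultures harvested unirradiated on day 6, and 4 senescent cultures harvested on day 16 after gamma-irradiation with 10 Gray. Irradiation and days in culture changed together, so their effects cannot be told apart. Nothing in the sample descriptions ties the cultures to separate mice, so the p-values for PTEC measure only the spread between these cultures, which may be technical. The other 9 libraries were made from one portion of the right kidney of male C57BL/6JRj mice, 3 mice each at 3, 12 and 24 months of age. All samples were labelled wild type.

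Reabsorption of filtered glucose and amino acids takes place in the proximal tubule. Sodium-coupled or exchange carriers in the apical brush border take the solute out of the filtrate, and facilitative carriers and exchangers in the basolateral membrane pass it on to the blood. Other members of the same families are used by most cells for their own nutrition, for lactate export, for osmolytes such as taurine, betaine and myo-inositol, and for neurotransmitters. Several plasma membrane amino acid carriers are known targets of ATF4, a transcription factor of the amino acid starvation response.

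By role, the set held 8 sodium-coupled sugar carriers, 12 facilitative sugar carriers, 9 apical and 5 basolateral amino acid carriers of the proximal tubule, 28 general amino acid carriers, 18 neurotransmitter and osmolyte carriers, 5 sodium-coupled carriers of monocarboxylates, iodide, choline or vitamins, and 13 monocarboxylate carriers. The remaining 2 were Slc6a21, given no role here, and Slc7a6os, which shares a prefix with the carriers but is not one. A subset of 19 members is referred to below as reabsorption carriers. It held Slc5a1, Slc5a2, Slc5a10, Slc2a2, Slc5a8, Slc5a12, the 9 apical amino acid carriers and the basolateral ones except Slc3a2. Another subset of 10 is referred to as ATF4-linked carriers. Both lists were chosen with earlier results of these data known, so their contrast with all genes is descriptive. After removal of genes with low counts, 73 members were tested among 15434 genes in PTEC and 78 among 17067 genes in kidneys. Levels are given as CPM (counts scaled to a common library size of 10 to the power 6). A gene was called higher or lower at an adjusted p under 0.05 in edgeR's quasi-likelihood test and an absolute log2 fold change above 0.5, and every adjusted p given for a gene comes from this test, with adjustment over all genes tested. The words rose and fell refer to called genes alone.

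PTEC libraries held 26963442 to 35409144 counts and kidney libraries 37311247 to 66894790. The members took between 0.385% and 0.742% of the counts of a PTEC library, and between 0.664% and 0.918% of those of a kidney library. The senescence markers Cdkn1a and Cdkn2a were higher in senescent PTEC by 1.30 and 1.64 on the log2 scale. The cultures were checked against the proximal tubule markers. Lrp2, which encodes the endocytic receptor megalin, was present at 65.5 to 539 CPM in all 8 cultures, but Slc22a6, an organic anion carrier of the differentiated proximal tubule, reached at most 0.332 CPM. Slc34a1, its phosphate carrier, had 13.5 and 22.4 CPM in non-senescent replicates 3 and 4 and at most 0.461 CPM in the other 6 cultures. The sum of 12 proximal tubule markers was 189 to 860 CPM in PTEC and at least 44754 CPM in every kidney. Non-senescent PTEC replicates 3 and 4 stood apart from replicates 1 and 2, and among the reabsorption carriers 13 of 15 tested were higher in both of them than in both others, compared with 41 of all 73 tested members and 24.5% of all genes tested. Results that rest on these libraries are given with and without both, a comparison chosen after seeing the data. The 3-month-old kidneys had been counted on another gene set than the 12- and 24-month-old kidneys, although the study methods name 1 annotation release, so age and gene set cannot be told apart in comparisons with 3 months. By position, 2 of the 100 members overlap a gene present in only 1 of the kidney gene sets, and other effects of the gene set were not tested. In addition, 22 members share exon sequence with a gene on the opposite strand, and the strand setting of the counting is not given in the sources used here.

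For members whose regulation is discussed below, the 250 bases upstream of the annotated start are printed from RefSeq (GRCm38.p6), 5′ to 3′ on the strand of the gene. Slc3a1 and Slc7a9 are shown because they encode the paired subunits of the apical cystine and dibasic amino acid carrier and both fell in senescent PTEC. Slc7a11 is shown as a known ATF4 target that fell there. Capitals mark matches to CAAAGTCCA, a binding sequence of the proximal tubule factor HNF4, or to TGATGNAA, a composite element of ATF4 and C/EBP factors.
Slc3a1 at chr17:85028097-85028346, plus strand: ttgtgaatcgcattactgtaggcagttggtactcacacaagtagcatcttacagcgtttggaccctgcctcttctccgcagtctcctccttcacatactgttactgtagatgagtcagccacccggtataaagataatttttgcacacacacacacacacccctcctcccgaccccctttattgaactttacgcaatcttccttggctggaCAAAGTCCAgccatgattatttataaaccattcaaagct
Slc7a9 at chr7:35448842-35449091, plus strand: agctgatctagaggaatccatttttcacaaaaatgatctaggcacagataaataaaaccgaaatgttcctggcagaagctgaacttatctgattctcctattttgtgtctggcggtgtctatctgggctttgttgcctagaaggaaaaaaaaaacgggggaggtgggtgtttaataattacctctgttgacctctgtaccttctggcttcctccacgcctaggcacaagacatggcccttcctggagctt
Slc7a11 at chr3:50443614-50443863, minus strand: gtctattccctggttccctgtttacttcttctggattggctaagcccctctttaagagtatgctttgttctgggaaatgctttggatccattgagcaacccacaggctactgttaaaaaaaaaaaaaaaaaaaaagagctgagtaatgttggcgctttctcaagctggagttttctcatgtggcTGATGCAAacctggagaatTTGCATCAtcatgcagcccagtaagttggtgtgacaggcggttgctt
The HNF4 sequence in Slc3a1 lies 39 to 31 bases before the start on the strand of the gene. In Slc7a11 the ATF4 element occurs 66 to 59 bases before the start on the strand of the gene and again 47 to 40 bases before it on the other strand. No match was found in Slc7a9. RefSeq promoters were matched for 73 members, 95 sequences in all, and searched on both strands. The HNF4 sequence was present in 1 of the 95, against 0.384% of all 32851 promoters of the same length, and the ATF4 element in 4 (of Slc7a11, Slc6a21 and a pair of alternative starts of Slc7a7), against 3.45%. GTTAATNAT, a binding sequence of HNF1, another proximal tubule factor, was present in 0 of the 95 and in 0.737% of all promoters. A match describes the letters in this window and is not evidence of binding, and its absence says nothing about the factor. Slc5a2 was not in the promoter table.

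Levels between genes were compared per kilobase of exon. In 3-month-old kidneys the highest level per kilobase was that of Slc7a13, an apical aspartate, glutamate and cystine carrier of the late proximal tubule, with 602 ± 56.0 CPM per kilobase (SD, n = 3). It was followed by Slc3a1 (360 ± 44.9) and, lower, by Slc6a18, which reabsorbs glycine and other neutral amino acids, at 161 CPM per kilobase, and Slc5a10, a sodium-coupled mannose and fructose carrier, at 142 CPM per kilobase. Slc7a13 and Slc3a1 led at every age. In 24-month-old kidneys the third place was taken by Slc5a2, which encodes the apical glucose carrier SGLT2, at 263 ± 37.3 CPM per kilobase.

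Non-senescent PTEC showed another order. Slc2a1, the general glucose carrier GLUT1, had 116 ± 28.6 CPM per kilobase (SD, n = 4), Slc6a18 had 98.0 ± 88.5 and Slc6a6, the taurine carrier, had 97.7 ± 35.1, values that do not differ beyond their spread. Without replicates 3 and 4 the mean of Slc6a18 was 31.8 CPM per kilobase. Next came Slc3a2, the heavy chain of the LAT-type exchangers, with 72.8, then Slc38a2 with 48.7 and Slc7a5 and Slc6a8 with 42.8 each. In senescent PTEC Slc6a6 came first with 346 ± 191 CPM per kilobase. At a group mean of at least 1 CPM, 64 members were detected in non-senescent PTEC, 56 in senescent PTEC, and 70, 69 and 71 in kidneys of 3, 12 and 24 months. Slc5a4a had no count in any library, and 20 members stayed under 1 CPM in all of them.

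Culture and organ are set side by side without a test, since tissue, culture and gene set differ at once. Slc7a13 averaged 1288 CPM in 3-month-old kidneys and 0.0416 CPM in non-senescent PTEC. Slc5a2 averaged 207 and 1.62 CPM (0.344 CPM in PTEC without non-senescent replicates 3 and 4), Slc5a8, a sodium-coupled lactate and butyrate carrier, 302 and 1.46 CPM (0.88 CPM without both), and Slc16a4, an orphan of the monocarboxylate carrier family, 157 and 1.67 CPM. The opposite order was found for Slc7a5, the large neutral amino acid exchanger LAT1, with 2.80 CPM in kidneys and 159 CPM in PTEC, for Slc38a1, a glutamine carrier, with 2.32 and 111 CPM, and for Slc7a11, the cystine and glutamate exchanger, with 0.127 and 93.7 CPM. Slc6a18 averaged 713 ± 69.9 CPM in kidneys and 433 ± 391 CPM in PTEC, where the mean of non-senescent replicates 1 and 2 alone was 141 CPM.

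**Figure D1:**
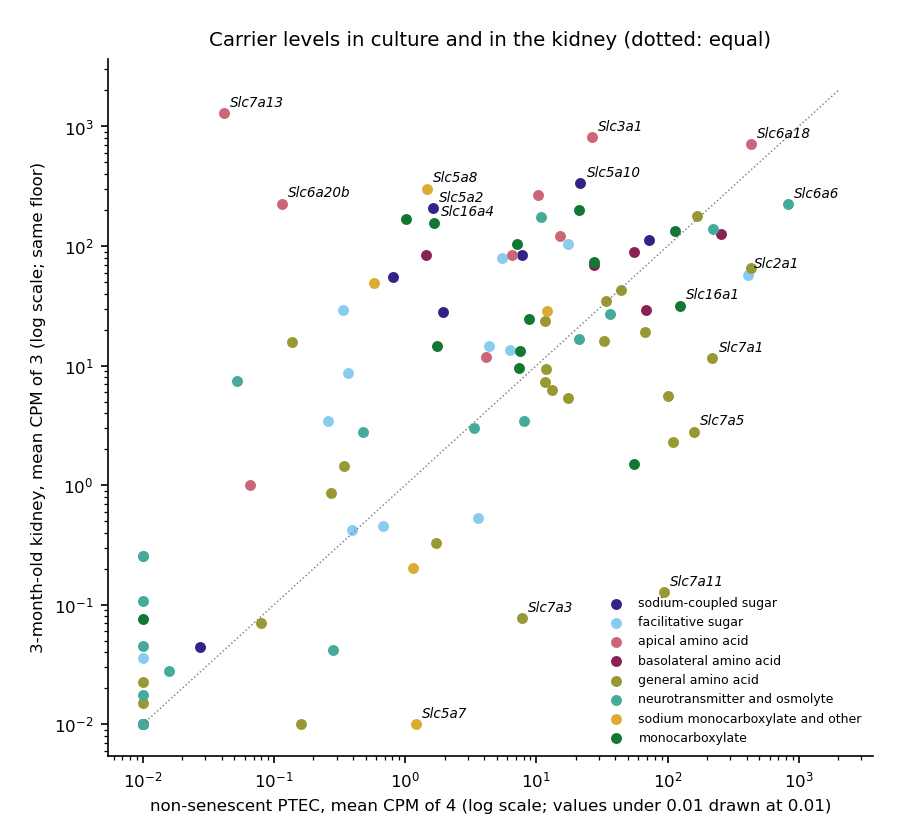
Mean CPM of each member in non-senescent PTEC (horizontal, n = 4) and in 3-month-old kidneys (vertical, n = 3), both on log scales, one point per member coloured by role, with means under 0.01 CPM drawn at 0.01. Points above the dotted line of equality, such as Slc7a13 (1288 and 0.0416 CPM), had the higher mean in kidneys, and points below it, such as Slc7a11 (0.127 and 93.7 CPM), the higher mean in PTEC.

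The PTEC comparison asks which carriers differ between senescent and non-senescent tubular cells. Of the 73 members tested, 12 were higher and 26 were lower in senescent PTEC, compared with 20.1% of all genes tested called higher and 19.7% called lower. The median log2 fold change over the tested members was −0.44, and it was −0.00 over all genes. The groups did not overlap for 38 of them, against 42.0% of all genes tested. Most tested apical reabsorption carriers of sugars and amino acids, though not Slc1a1, the basolateral exchangers Slc7a8 and Slc16a10 and the proton-coupled lactate carriers Slc16a1 and Slc16a3 fell, while the taurine carrier Slc6a6, the neutral amino acid carrier Slc1a4 and several intracellular or low-level sugar carriers rose.

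Among the reabsorption carriers, 15 of 19 were tested. Of these, 0 rose and 11 fell, where 39.8% of all genes tested were called in either direction, with a median log2 fold change of −2.65. Without non-senescent replicates 3 and 4, 9 fell and 4 rose (Slc1a1 by 1.17, Slc38a3 by 3.06, Slc5a8 by 1.95 and Slc7a7 by 0.76), with a median of −1.91, where 19.1% of all genes tested in that fit were lower and 23.1% higher. With the replicate number as a block, 11 fell and Slc5a8 rose, against 21.3% and 23.2% of all genes tested. Their summed level was 273 to 1423 CPM in the non-senescent cultures, highest in replicate 4, and 120 to 202 CPM in the senescent cultures, so the groups did not overlap. The remaining 4 members, Slc7a13, Slc6a20b, Slc36a2 and Slc5a12, were close to absent from PTEC and were not tested. The list, chosen with earlier results of these data known, leaves out some tested carriers of the same roles. Of these, Slc5a3 fell and Slc3a2, Slc5a9 and Slc5a11 were not called.

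The apical amino acid carriers fell in 5 of 6 tested cases, against 19.7% of all genes tested. Slc3a1, the heavy subunit of the cystine carrier, had 3.26, 3.02, 30.2 and 69.2 CPM in the non-senescent cultures and 0.643, 0.603, 0.594 and 0.587 CPM in the senescent ones. All senescent cultures lay below all non-senescent cultures, whose replicates 3 and 4 were the highest. The log2 fold change was −5.43 (SE 1.04, adjusted p = 0.00258), and −2.37 without non-senescent replicates 3 and 4. Exons of Slc3a1 overlap those of Prepl on the opposite strand by 601 bases, and Prepl was higher in senescent PTEC by 0.90. Its light subunit Slc7a9 had 2.98, 1.81, 7.65 and 13.5 CPM and then 0.0965, 0.167, 0.027 and 0.138 CPM. Again the groups were separate, and the log2 fold change was −5.90 (SE 0.783, adjusted p = 0.000338), or −4.49 without both replicates.

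The neutral amino acid carriers of the brush border belong to the Slc6 family. Slc6a19 (B0AT1), the main carrier for neutral amino acids, had 15.2, 9.75, 18.3 and 16.8 CPM in non-senescent and 2.38, 2.14, 4.30 and 2.52 CPM in senescent cultures, and fell by 2.40 on the log2 scale (SE 0.287, adjusted p = 0.000189). For this gene non-senescent replicates 3 and 4 were only slightly above replicate 1. Slc6a20a, the proline carrier, fell by 3.44 (SE 0.534, adjusted p = 0.000805), and by 2.57 without non-senescent replicates 3 and 4. Slc6a18 had 165, 116, 484 and 966 CPM and then 47.3, 34.6, 107 and 86.7 CPM, a log2 fold change of −2.65 (SE 0.66, adjusted p = 0.00977). The senescent values all lay below the non-senescent ones, but without non-senescent replicates 3 and 4 the log2 fold change was −1.03 and the adjusted p = 0.078.

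Slc1a1, the apical glutamate carrier, was the tested apical member that was not called. It had 2.24, 2.10, 9.73 and 27.0 CPM in non-senescent and 7.46, 5.16, 2.76 and 4.39 CPM in senescent cultures, with an adjusted p of 0.28. The groups overlapped, and without non-senescent replicates 3 and 4 the direction turned, with a log2 fold change of 1.17 (adjusted p = 0.042).

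**Figure D2:**
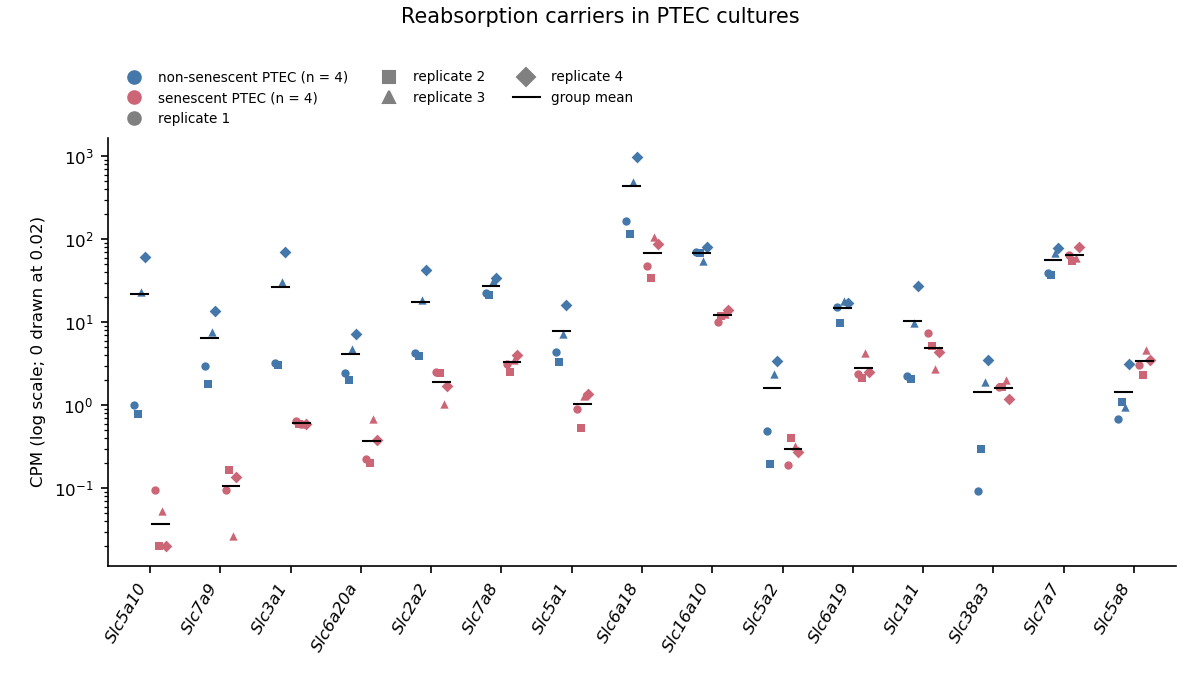
CPM (log scale) of the 15 tested reabsorption carriers in the 4 non-senescent and 4 senescent PTEC cultures, one point per culture, with a bar for the mean of each group. For Slc3a1 the senescent cultures lie together near 0.6 CPM while the non-senescent ones spread from 3.02 to 69.2 CPM, and for Slc7a8 both groups are tight and separate.

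Sugar carriers moved in both directions. Of 6 sodium-coupled members tested, 4 fell, against 19.7% of all genes tested. Slc5a10 had 1.01, 0.788, 23.4 and 61.3 CPM in non-senescent and 0.0965, 0, 0.0540 and 0 CPM in senescent cultures, a log2 fold change of −8.96 (SE 1.80, adjusted p = 0.00323) that became −4.40 without non-senescent replicates 3 and 4. The senescent cultures were at or close to 0, so the size of this change is imprecise. Slc5a1 (SGLT1), the high-affinity glucose carrier, fell by 2.91 (SE 0.533, adjusted p = 0.00199), from 3.35 to 16.2 CPM to 0.536 to 1.38 CPM, and by 1.91 without both replicates.

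Less firm calls were those of Slc5a2 and Slc5a3. Slc5a2 had 0.492, 0.197, 2.35 and 3.43 CPM and then 0.193, 0.402, 0.324 and 0.276 CPM. These groups overlapped, the log2 fold change was −2.41 (adjusted p = 0.0308), and it was −0.22 (adjusted p = 0.73) without non-senescent replicates 3 and 4. Slc5a3, which takes up the osmolyte myo-inositol, had 56.8, 63.4, 42.2 and 127 CPM and then 43.1, 44.7, 30.1 and 42.3 CPM. The log2 fold change of Slc5a3 was −0.86 (SE 0.31, adjusted p = 0.0476), and the call was lost in 7 of 8 fits that left out 1 culture. Slc5a2 lost it in 6 of 8. Exons of Slc5a3 overlap those of Mrps6 on the same strand, by at most 159 bases. Mrps6 was lower in senescent PTEC by 0.73 (adjusted p = 0.0167).

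Among 9 facilitative sugar carriers tested, 4 rose and 1 fell, against 20.1% and 19.7% of all genes tested. The 1 that fell was Slc2a2 (GLUT2), the basolateral exit for reabsorbed glucose. Slc2a2 had 4.21, 3.94, 18.7 and 42.9 CPM in non-senescent and 2.51, 2.44, 1.03 and 1.73 CPM in senescent cultures, a log2 fold change of −3.18 (SE 0.76, adjusted p = 0.00799), or −1.09 without non-senescent replicates 3 and 4. Slc2a1 had 346, 299, 487 and 499 CPM and then 281, 175, 386 and 281 CPM. The Slc2a1 groups overlapped, and the log2 fold change of −0.54 was not called (adjusted p = 0.113). Slc2a1 was lower in the senescent culture of every same-numbered pair, and with the replicate number as a block it was called lower (−0.56, adjusted p = 0.00903).

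The facilitative members that rose were at lower levels. Slc2a9, a urate carrier, had 3.47, 3.51, 4.35 and 5.98 CPM in non-senescent and 10.0, 9.68, 9.62 and 7.88 CPM in senescent cultures, with a log2 fold change of 1.10 (SE 0.219, adjusted p = 0.00305) and no overlap. Slc2a8 (GLUT8), found in intracellular membranes, rose by 1.01 (SE 0.28, adjusted p = 0.0159), from 4.03 to 8.93 CPM to between 12.5 and 13.4 CPM, and by 1.65 without non-senescent replicates 3 and 4. Slc2a10 rose by 1.99 (SE 0.336, adjusted p = 0.00129) and Slc2a13, a proton-coupled myo-inositol carrier, by 1.89 (SE 0.374, adjusted p = 0.00297).

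Basolateral amino acid exit was divided. Slc7a8 (LAT2), an exchanger of neutral amino acids, had 22.7, 21.5, 31.3 and 34.0 CPM in non-senescent and 3.12, 2.51, 3.49 and 4.01 CPM in senescent cultures, a log2 fold change of −3.06 (SE 0.223, adjusted p = 1.09e-05). Slc16a10 (TAT1), which releases aromatic amino acids, had 69.9, 68.8, 55.1 and 79.8 CPM and then 10.1, 11.8, 12.7 and 14.2 CPM, a log2 fold change of −2.49 (SE 0.164, adjusted p = 6.2e-06). For both genes the groups were far apart and the spread within a group was small, and non-senescent replicates 3 and 4 did not stand apart for Slc16a10. The other 3 were not called. Slc7a7, the light chain of the dibasic amino acid exchanger, had a log2 fold change of 0.22 (adjusted p = 0.50), and its heavy chain Slc3a2, at 175 to 402 CPM, had −0.30 (adjusted p = 0.34).

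**Figure D3:**
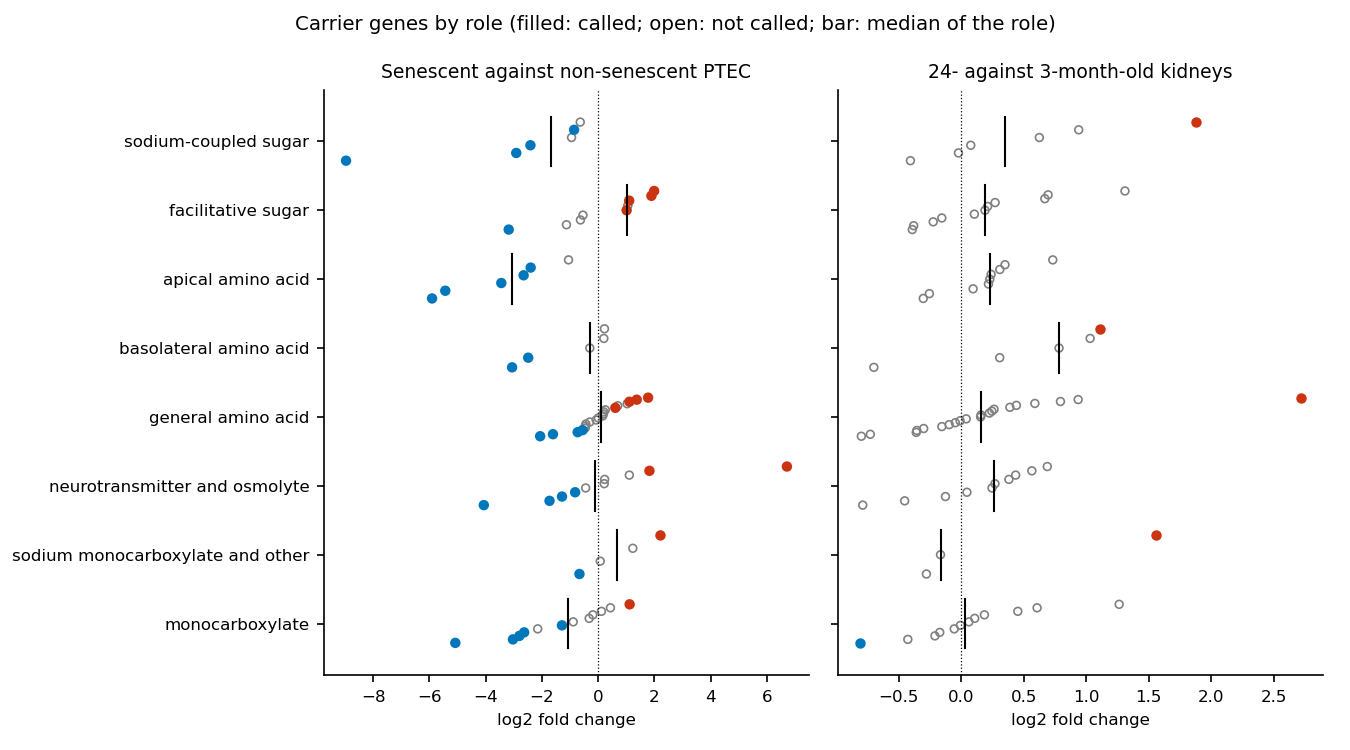
Log2 fold change of each tested member, arranged by role, for senescent against non-senescent PTEC (left) and 24 against 3 months in kidneys (right), with filled points for called members and a bar for the median of each role. The 2 panels have different horizontal scales, and in PTEC the apical amino acid carriers have the lowest median of these roles, −3.05.

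Among 20 general amino acid carriers tested, 4 rose and 4 fell, shares near the 20.1% and 19.7% of all genes tested, and 12 were not called. Slc1a4 (ASCT1), an exchanger of alanine, serine and cysteine, had 25.9, 24.6, 40.3 and 44.1 CPM in non-senescent and 76.2, 71.3, 67.0 and 77 CPM in senescent cultures, a log2 fold change of 1.11 (SE 0.20, adjusted p = 0.00183). Its relative Slc1a5 (ASCT2), which takes up glutamine, had 47.2, 52.8, 81.3 and 86.9 CPM and then 15.1, 17.2, 17.2 and 14.8 CPM, a log2 fold change of −2.06 (SE 0.213, adjusted p = 8.3e-05). These related genes moved in opposite directions, each without overlap between the groups.

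Slc7a11 had 134, 66.9, 79.0 and 94.9 CPM in non-senescent and 28.6, 26.0, 30.0 and 38.6 CPM in senescent cultures, with a log2 fold change of −1.61 (SE 0.225, adjusted p = 0.00046). Non-senescent replicate 1 was the highest here, and replicates 3 and 4 did not stand apart. Slc7a5 fell by 0.55 (SE 0.152, adjusted p = 0.0154), a call lost without non-senescent replicate 3 or senescent replicate 3. Slc36a4, an amino acid carrier of the Slc36 family, rose by 1.37 (SE 0.295, adjusted p = 0.00464), Slc38a7, a lysosomal glutamine carrier, by 0.61 (SE 0.119, adjusted p = 0.00279), and Slc7a2, a cationic amino acid carrier, by 1.78 (SE 0.462, adjusted p = 0.012). Slc6a15, a carrier of branched-chain amino acids, was called lower by 0.73 (adjusted p = 0.0476) and lost the call in 6 of 8 fits that left out 1 culture.

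The 10 ATF4-linked carriers comprised Slc1a4, which rose, and Slc1a5, Slc7a5 and Slc7a11, which fell, while 6 were not called, and their median log2 fold change was −0.14. Those not called were Slc3a2, Slc38a2 at −0.46 (adjusted p = 0.064), Slc7a1 at 0.19, Slc38a1 at 0.01, Slc6a9 at 0.23 and Slc7a3 at 1.03 (adjusted p = 0.064). Of 17 other genes of the ATF4 response, 5 were called higher, against 20.1% of all genes tested (Ddit3 by 1.37, Chac1 by 1.01, Sesn2 by 0.73, Pycr1 by 1.23 and Nupr1 by 1.29) and 1 lower, against 19.7% (Psat1, −1.30), and Atf4 itself was not called, with a log2 fold change of 0.39.

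Among neurotransmitter and osmolyte carriers, 2 of 10 tested rose and 4 fell, where 20.1% of all genes tested were higher and 19.7% lower. Slc6a6 had 906, 1077, 396 and 925 CPM in non-senescent and 3801, 4687, 1107 and 2094 CPM in senescent cultures. Every senescent culture was above every non-senescent one, although senescent replicate 3 (1107 CPM) and non-senescent replicate 2 (1077 CPM) were close, and replicate 3 was the lowest in both groups. The log2 fold change of Slc6a6 was 1.82 (SE 0.453, adjusted p = 0.00961), and 1.55 without non-senescent replicates 3 and 4, where it was not called (adjusted p = 0.050). Slc1a6, a glutamate carrier best known from the cerebellum, had 2 counts in all non-senescent cultures and 279 in all senescent ones, a ratio of CPM of 127 with a 95% counting interval of 34.8 to 1054.

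Slc6a13 (GAT2), a GABA carrier, had 7.32, 6.20, 12.9 and 16.9 CPM in non-senescent and 0.740, 0.603, 0.865 and 0.345 CPM in senescent cultures, a log2 fold change of −4.06 (SE 0.416, adjusted p = 7.73e-05) with no overlap, or −3.39 without non-senescent replicates 3 and 4. Slc6a12, the betaine carrier, fell by 1.28 (SE 0.349, adjusted p = 0.0147), so that Slc6a6 and Slc6a12 moved in opposite directions. Slc1a2, a glutamate carrier, fell by 1.73 (SE 0.306, adjusted p = 0.00166). Slc6a17, a carrier of synaptic vesicles, fell by 0.82 (adjusted p = 0.0176) and lost its call without senescent replicate 4. Slc6a8, the creatine carrier, had 172 to 286 CPM in non-senescent and 217 to 310 CPM in senescent cultures and was not called.

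The monocarboxylate carriers held 5 members that fell and 1 that rose, of 12 tested, against 19.7% and 20.1% of all genes tested. Slc16a1 (MCT1), which carries lactate and pyruvate with a proton, had 121, 107, 122 and 145 CPM in non-senescent and 18.6, 19.9, 23.2 and 18.2 CPM in senescent cultures. This was a 6.19-fold lower level, a log2 fold change of −2.63 (SE 0.144, adjusted p = 2.99e-06), and the groups were far apart. Slc16a3 (MCT4), the lactate exporter of glycolytic cells, had 26.9, 54.7, 73.7 and 65.7 CPM and then 6.08, 10.6, 6.59 and 8.50 CPM, a log2 fold change of −2.80 (SE 0.319, adjusted p = 0.000143). The transcript of Bsg, the chaperone that brings both carriers to the membrane, had a log2 fold change of −0.01.

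Slc16a12, a creatine exit carrier, had 116, 108, 84.5 and 149 CPM in non-senescent and 43.1, 53.8, 47.4 and 43.3 CPM in senescent cultures and fell by 1.29 (SE 0.176, adjusted p = 0.000406). Slc16a6, a ketone body carrier, fell by 3.03 (SE 0.26, adjusted p = 2.72e-05). Slc16a5 fell by 5.08 (SE 0.658, adjusted p = 0.0003), or 4.47 without non-senescent replicates 3 and 4. Gm11695, which overlaps exons of Slc16a5 on the opposite strand by 104 bases, was lower by 6.71. Whether the pair shares reads was not tested. Among the other sodium-coupled members, the choline carrier Slc5a7 rose by 2.21 (SE 0.549, adjusted p = 0.00954), from at most 1.87 CPM to at least 3.92 CPM (by 1.62 without non-senescent replicates 3 and 4), and the vitamin carrier Slc5a6 fell by 0.66 (adjusted p = 0.0161), a call lost without senescent replicate 1 or 4.

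**Figure D4:**
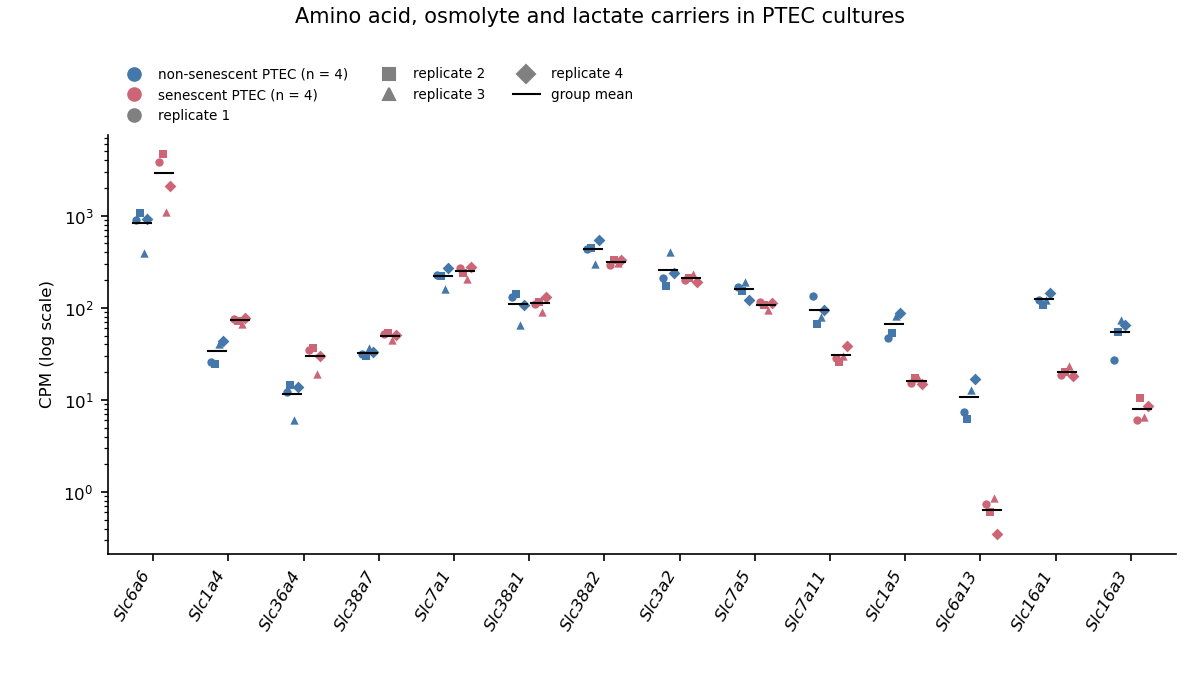
CPM (log scale) of 14 carriers used for cell nutrition, osmolytes and lactate in the 4 non-senescent and 4 senescent PTEC cultures, one point per culture and a bar for the mean of each group. Slc6a6 reaches 4687 CPM in a senescent culture, Slc16a1 falls from 107 to 145 CPM to 18.2 to 23.2 CPM, and Slc38a1 and Slc7a1 lie at like levels in both groups.

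Leaving out any 1 culture kept the call of 11 of the 12 members that rose and 20 of the 26 that fell. Without non-senescent replicates 3 and 4, 20 members were higher (11 of the 12, and 9 others) and 23 lower (22 of the 26, and Slc16a14), against 23.1% and 19.1% of all genes tested in that fit. The members gained among the higher were Slc1a1, Slc38a3, Slc5a11, Slc5a8, Slc6a2, Slc6a8, Slc6a9, Slc7a3 and Slc7a7. Members lost were Slc6a6 among the higher and Slc5a2, Slc5a6, Slc6a17 and Slc6a18 among the lower. With the replicate number as a block all 38 calls were kept, 15 members being higher and 29 lower, against 23.2% and 21.3% of all genes tested, and Slc5a8, Slc7a3 (1.08) and Slc6a3 (1.02) were also higher and Slc2a1 (−0.56), Slc16a11 (−1.01) and Slc16a14 (−1.81) also lower.

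Markers of cell types were followed as well, where 20.1% of all genes tested were called higher and 19.7% lower. Some of the small counts below are near these shares. Of 7 tested proximal tubule markers 3 were lower (Hnf4a, Pck1 and Kap) and 0 higher. Of 6 tested distal nephron markers 5 were lower, their sum being 14.9 to 81.5 CPM in non-senescent and 1.64 to 4.40 CPM in senescent cultures. Of 9 tested fibroblast markers 7 were higher, their sum being 205 to 342 CPM and then 1032 to 2219 CPM. Of 9 tested leukocyte markers 3 were lower (Ptprc, Coro1a and Cd68), of 4 podocyte markers 2 were higher (Nphs1 and Synpo), and of 7 endothelial markers 1 was lower (Kdr). Their part in the carrier results was not tested. Fewer cells of a type and less RNA per cell cannot be told apart in bulk samples. Of 7 tested partner proteins that place the carriers in the membrane, 4 were lower, where 19.7% of all genes tested were, 0 were higher and 3 were not called. The log2 fold change was −6.17 for Pdzk1, a scaffold of the brush border (adjusted p = 0.00021), −1.11 for Slc9a3r1, another scaffold, −2.10 for Cltrn, which Slc6a19 requires at the membrane (adjusted p = 0.015), and −0.88 for Emb.

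The age comparisons ask which carriers differ between kidneys of young, middle-aged and old mice. Between 3 and 24 months, 4 of 78 tested members were higher, against 1.89% of all genes tested, and 1 was lower, against 0.451%, or 5 in either direction, against 2.34%. These were the glucose carrier Slc5a2, the lactate carrier Slc5a12, the dibasic amino acid exchanger Slc7a7 and the amino acid carrier Slc38a4, which rose, and Slc16a4, which fell. Leaving out 1 kidney gave 1 to 10 higher and 0 to 1 lower members, and the shares of all genes called in those fits are not given here. The median log2 fold change of the members was 0.17. The groups did not overlap for 22 members, against 22.0% of all genes tested. An unadjusted p under 0.05 was found for 17 of the 78 members and for 3106 of the 17067 genes. Among the 19 reabsorption carriers, all of them tested in kidneys, 3 rose and 0 fell.

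Slc5a2 (chr7:128265657-128272430, plus strand, GRCm38) had 194, 273 and 154 CPM at 3 months, 372, 245 and 380 CPM at 12 months and 840, 639 and 807 CPM at 24 months. Every kidney of 24 months was above every younger kidney, and the kidneys of 3 and 12 months overlapped. The log2 fold change between 3 and 24 months was 1.88 (SE 0.258, adjusted p = 0.00997), a 3.68-fold higher level, and it was no longer called without 3-month replicate 1 (adjusted p = 0.078). Between 12 and 24 months the log2 fold change was 1.20 and not called (adjusted p = 0.0589). The fit without the 3-month kidneys and with the replicate number as a block, described below, gave 1.21 (adjusted p = 0.000547). That fit was chosen after seeing the data and rests on a pairing that the labels do not give. Exons of BC017158 overlap those of Slc5a2 on the opposite strand by 597 bases, and BC017158 averaged 24.0, 29.9 and 27.4 CPM at the 3 ages. Of its relatives among the sodium-coupled sugar carriers, Slc5a10 had 310, 422 and 279 CPM at 3 months and 246, 227 and 289 CPM at 24 months and was not called. Slc5a9 and Slc5a11 were higher in all 24-month-old than in all 3-month-old kidneys, but neither was called, with adjusted p of 0.12 for a log2 fold change of 0.94 and of 0.16 for 0.62.

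Slc38a4 (chr15:96994820-97055956, minus strand), a carrier of small neutral amino acids that is imprinted in mice, had 0.971, 1.04 and 0.540 CPM at 3 months, 1.60, 1.22 and 1.58 CPM at 12 months and 5.74, 5.09 and 6.02 CPM at 24 months. The 3 ages did not overlap. Slc38a4 rose by 2.72 between 3 and 24 months (SE 0.268, adjusted p = 0.00201) and by 1.94 between 12 and 24 months (SE 0.255, adjusted p = 0.0181), and the first of these calls was kept in all 6 fits that left out 1 kidney of the compared ages. Its level stayed low next to that of Slc5a2.

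Slc5a12 (chr2:110597298-110647779, plus strand), a sodium-coupled lactate carrier of the early proximal tubule, had 43.2, 72.0 and 31.2 CPM at 3 months, 86.5, 64.5 and 89.2 CPM at 12 months and 152, 149 and 131 CPM at 24 months. Its log2 fold change between 3 and 24 months was 1.56 (SE 0.287, adjusted p = 0.0279). Slc7a7 (chr14:54369442-54417780, minus strand) had 81.7, 117 and 70.9 CPM, then 97.7, 90.5 and 117 CPM, and then 180, 197 and 204 CPM, with a log2 fold change of 1.11 (SE 0.201, adjusted p = 0.0261). For both genes the kidneys of 24 months lay above all others, but each call was kept in only 1 of 6 fits that left out 1 kidney, that without 3-month replicate 2, with adjusted p up to 0.160 for Slc5a12 and 0.157 for Slc7a7. Oxa1l, which overlaps exons of Slc7a7 by 232 bases, had a log2 fold change of 0.21 (adjusted p = 0.66).

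Slc16a4 (chr3:107291230-107312115, plus strand) had 152, 160 and 158 CPM at 3 months, 141, 151 and 149 CPM at 12 months and 83.5, 96.0 and 88.3 CPM at 24 months. The 24-month-old kidneys lay well below all others, with a log2 fold change of −0.81 against 3 months (SE 0.123, adjusted p = 0.0136) and of −0.72 against 12 months (SE 0.122, adjusted p = 0.0322). The first call was lost without 3-month replicate 1, 24-month replicate 1 or 24-month replicate 3, with adjusted p up to 0.0802, in fits with fewer kidneys.

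Among the most abundant carriers, Slc3a1, Slc6a18 and Slc7a13 were not called with age in the fit over all kidneys. Slc3a1 had 723 to 926 CPM at 3 months, 889 to 1004 CPM at 12 months and 919 to 987 CPM at 24 months, and Slc6a18 had 637 to 775, 712 to 740 and 832 to 855 CPM. Slc7a13 had 1154 to 1382 CPM at 3 months, up to 1764 CPM at 12 months and 933 to 1145 CPM at 24 months. The 24-month-old kidneys were the lowest for Slc7a13 and the highest for Slc6a18, without overlap with the other ages. Slc2a2 had 81.5 to 127 CPM at 3 months and 161 to 181 CPM at 24 months, a log2 fold change of 0.69 (adjusted p = 0.12).

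**Figure D5:**
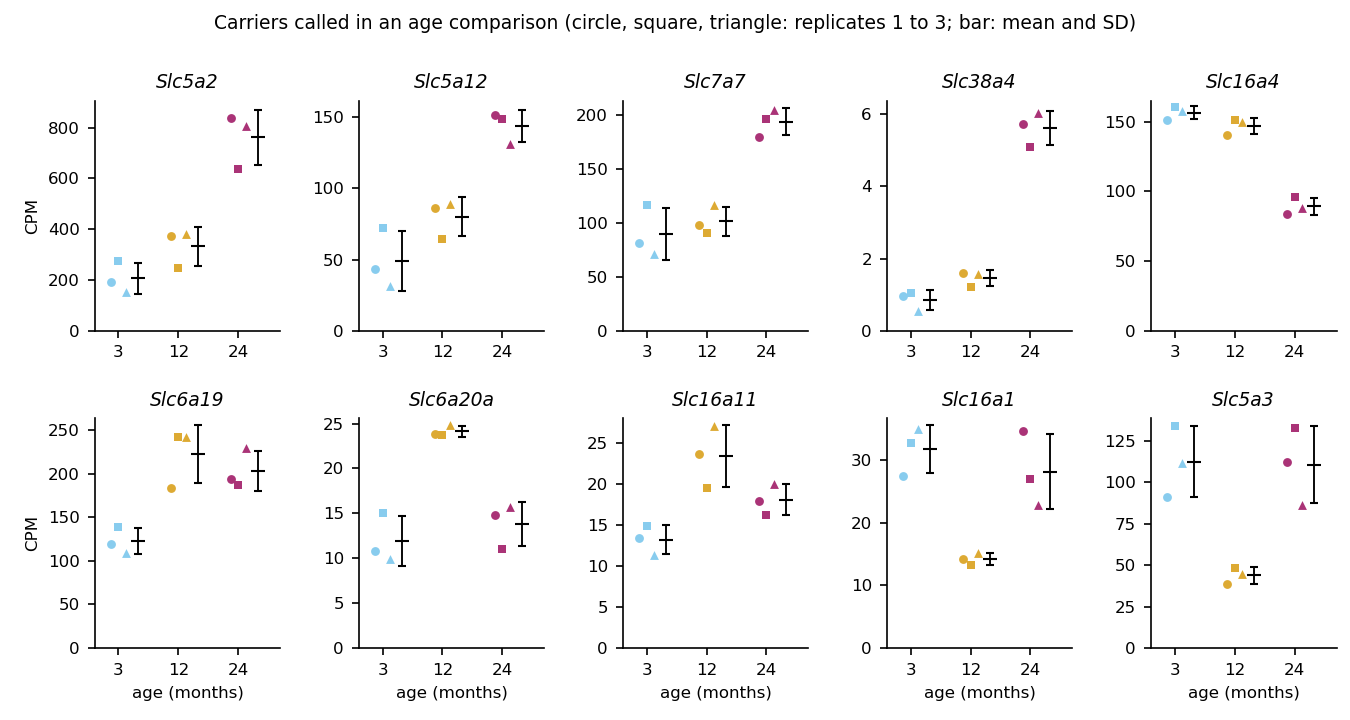
CPM of the 10 members called in at least 1 age comparison, for kidneys of 3, 12 and 24 months (n = 3 each), with one dot per kidney and bars for mean ± SD. Slc5a2 and Slc38a4 are highest at 24 months, Slc16a4 is lowest there, and Slc5a3 and Slc16a1 are lowest at 12 months.

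Between 3 and 12 months, 3 members were higher, against 1.22% of all genes tested, and 2 lower, against 1.36%, or 5 in either direction, against 2.58%. The groups did not overlap for 21 members, against 20.3% of all genes tested. Slc6a19 had 119, 139 and 109 CPM at 3 months, 184, 242 and 243 CPM at 12 months and 194, 187 and 229 CPM at 24 months, a log2 fold change of 0.86 at 12 months (SE 0.169, adjusted p = 0.0374) and of 0.73 at 24 months (adjusted p = 0.063). Slc6a20a had 10.8, 15.1 and 9.87 CPM, then 23.8, 23.7 and 24.8 CPM, and then 14.8, 11.0 and 15.7 CPM, with 1.02 at 12 months (SE 0.196, adjusted p = 0.0366). Thus the 24-month-old kidneys remained high for Slc6a19 but overlapped the 3-month-old ones for Slc6a20a. Slc16a11, which has been linked to pyruvate transport, rose by 0.83 (SE 0.17, adjusted p = 0.0421).

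The members lower at 12 months were Slc5a3 and Slc16a1. Slc5a3 had 91.1, 134 and 112 CPM at 3 months, 38.5, 48.4 and 44.6 CPM at 12 months and 112, 133 and 86.3 CPM at 24 months, a log2 fold change of −1.36 against 3 months (SE 0.207, adjusted p = 0.0191). Mrps6, which overlaps its exons on the same strand, had a log2 fold change of −0.74 (adjusted p = 0.39). Slc16a1 had 27.6, 32.8 and 35.0 CPM, then 14.3, 13.3 and 15.2 CPM, and then 34.8, 27.0 and 22.8 CPM, a log2 fold change of −1.15 (SE 0.179, adjusted p = 0.0202). For both genes the kidneys of 12 months lay below all others, and those of 3 and 24 months overlapped. Of the 5 calls between 3 and 12 months, 0 were kept in every fit that left out 1 kidney, with adjusted p up to 0.170. Leaving out 3-month replicate 2 gave 6 higher and 8 lower members, and other omissions gave as few as 0. The shares of all genes called in these fits are not given here, so the counts cannot be set against them.

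Between 12 and 24 months, 3 members were higher, against 0.896% of all genes tested, and 1 lower, against 0.434%, or 4 in either direction, against 1.33%. The groups did not overlap for 38 members, against 25.6% of all genes tested. Slc38a4 and Slc16a4 are given above, and the others were Slc5a3, which rose by 1.33 (SE 0.207, adjusted p = 0.024), and Slc16a1, which rose by 0.98 (SE 0.178, adjusted p = 0.0403). Leaving out any 1 kidney of 12 or 24 months ended the calls of Slc38a4, Slc16a4 and Slc16a1, and leaving out any but 24-month replicate 3 ended that of Slc5a3, with adjusted p up to 0.154. The deviations of same-numbered 12- and 24-month-old animals from their group means had correlations of 0.172 to 0.557, against −0.479 to 0.270 between differently numbered ones. These ranges overlap, and correlations of deviations from shared group means are not independent of each other. The labels do not pair these mice, and the blocked fit that follows was chosen after seeing the data. The fit with the replicate number as a block on these ages alone called 17 of 74 tested members higher and 8 lower, against 7.77% and 5.41% of all genes tested. All 4 members of the first fit were among them. This fit changed both the block and the ages used, and the replicate block over all ages called no member in this comparison. The 14 further members that rose in the blocked fit included Slc6a12 (2.23), Slc7a8 (1.35), Slc5a2 (1.21), Slc16a3 (1.06), Slc3a2 (1.03), Slc7a7 (0.93) and Slc5a12 (0.86), and the lower members included Slc6a20a (−0.82) and Slc7a13 (−0.57).

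Other genes were followed with age as well. Between 3 and 24 months, 1.89% of all genes tested were called higher and 0.451% lower. Between 3 and 12 months these shares were 1.22% and 1.36%. All 14 leukocyte markers had a positive log2 fold change between 3 and 24 months and 4 were called, with sums of 64.4 to 101 CPM at 3 months and 128 to 181 CPM at 24 months. Of 12 proximal tubule markers 1 was called higher (Miox), 10 had a positive and 2 a negative log2 fold change, with a median of 0.24, and their sum was 51718 to 53093 CPM at 3 months, 55421 to 61667 CPM at 12 months and 44754 to 49482 CPM at 24 months. Of 10 fibroblast markers 0 were called, and their sum was 190 to 229 CPM at 3 months and 243 to 312 CPM at 24 months. Of 7 endothelial markers 0 were called. All 7 had a positive log2 fold change between 3 and 12 months, and 6 a negative one between 12 and 24 months. Their sum was 184 to 243 CPM at 3 months, 287 to 295 CPM at 12 months and 183 to 299 CPM at 24 months. Of 10 distal nephron markers, 7 had a negative log2 fold change between 3 and 24 months, with a median of −0.51, and 6 had an unadjusted p under 0.05. Avpr2 was lower at 24 and at 12 months than at 3 months (−1.40 and −1.59) and Aqp2 lower at 12 months (−2.18), and the list summed to 4450 to 5889 CPM at 3 months, 3262 to 4095 CPM at 12 months and 4545 to 5944 CPM at 24 months. Of 11 circadian clock genes, Dbp was higher and Arntl lower at 12 than at 3 months, with sums of 321 to 421, 569 to 669 and 383 to 455 CPM at the 3 ages. A list of 10 immediate early and heat shock genes summed to 316 to 559 CPM at 3 months, 131 to 183 CPM at 12 months and 309 to 1249 CPM at 24 months, lowest at 12 months as were Slc5a3 and Slc16a1. Of the 17 ATF4 response genes, 3 were lower at 12 than at 3 months, against 1.36% of all genes tested, namely Asns (−1.30), Phgdh (−2.05) and Nupr1 (−2.56). In the fit over all kidneys, 0 of 9 tested ATF4-linked carriers were called in any age comparison. The share of all genes tested called in either direction was 2.34% for 24 against 3 months, 2.58% for 12 against 3 and 1.33% for 24 against 12. In the blocked fit of 12 and 24 months, 3 of 8 were higher at 24 months, against 7.77% of all genes tested, namely Slc3a2 (1.03), Slc7a1 (0.92) and Slc38a2 (0.60). The part of these genes in the carrier results was not tested.

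The direction of the carriers in senescent PTEC and in old kidneys was set side by side for the 68 members tested in both. In 26 of them the estimate was lower in senescent PTEC and higher at 24 months, in 18 it was lower in both, in 16 higher in both and in 8 higher in senescent PTEC and lower at 24 months. Of all tested members, 44 of 73 had a lower estimate in senescent PTEC and 48 of 78 a higher one at 24 months. Opposite directions would thus be frequent even if the 2 comparisons were unrelated, and a relation was not tested. The 1 member called in both was Slc5a2, in opposite directions, and in PTEC it was not called without non-senescent replicates 3 and 4. The same counts over all genes are not given here.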

How the data were processed

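Stranded poly(A) libraries had been sequenced and processed with nf-core/rnaseq on GRCm38 by the authors, who deposited unnormalized counts per gene. The aligner, counter and strand setting are not given in the sources used here. Identifiers were joined without version, and symbols, exon lengths and positions are from GENCODE M21.

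PTEC and kidneys were scaled (TMM), filtered (filterByExpr) and fitted apart with edgeR 4.0.16 (robust quasi-likelihood, Benjamini-Hochberg over all genes tested) in R 4.3.3 with limma 3.58.1. The 3 ages shared one estimate of the spread. Alternatives were DESeq2 1.42.0, RLE scaling, no filter, a log2 threshold of 1, the replicate block, the compared ages alone and each library left out. Tables and figures were made with Python 3.11.15, pandas 2.3.3, numpy 2.4.6, scipy 1.17.1 and matplotlib 3.10.9. The fits were tested on simulated counts with known changes.

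Same-numbered cultures deviated together (correlations of 0.186 to 0.614 over 4 pairs), as did 12- and 24-month-old kidneys (0.172 to 0.557). This is a hint of pairing from the data and not the labels. The main tests were unpaired, and the replicate number entered only the fits named as blocked. Between differently numbered cultures the correlations ran from −0.492 to 0.265, and between differently numbered 12- and 24-month-old kidneys from −0.479 to 0.270. These ranges overlap those of the same-numbered pairs. Between 3 months and the older ages the correlations were negative for same numbers and from −0.510 to 0.747 for different numbers. Replicates of 1 group differed by more than counting noise.

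The members and gene lists were chosen with earlier results of these data known. The genes named were those of the reabsorption and ATF4-linked lists, the 8 largest rises and falls among called members with at least 1 CPM in the higher group, members at 50 CPM or more in a group mean, and the remaining called members. Values of some genes are not reported here.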

Additional observations from a re-analysis of the deposited data

Results flagged for a closer look

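Among 110 sets of 4 PTEC cultures examined for a single culture far from the others (a gap to the nearest culture above Dixon's 95% critical value), 3 were found, where chance gives about 1 in 20. Non-senescent replicate 4 was far above the other non-senescent cultures for the lactate carrier Slc5a12, at 1.59 CPM, and for its relative Slc5a8, at 3.14 CPM. Senescent replicate 3 was far below the other senescent cultures for the myo-inositol carrier Slc5a3, at 30.1 CPM.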

How the results depend on the processing

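Both alternatives without non-senescent replicates 3 and 4, and on 12 and 24 months alone with the replicate block, were chosen after seeing the data. In PTEC, 12 members were higher and 26 lower, and the first of these gave 20 higher, with Slc1a1 (1.17) and Slc5a11 (2.35) turned to higher. DESeq2 (16 and 29), RLE scaling (12 and 26), no filter (15 and 25) and the log2 threshold of 1 (11 and 21) stayed within 1.5 times, and the replicate block gave 15 and 29 with all 38 calls kept. Leaving out 1 culture gave 11 to 15 higher and 22 to 25 lower. Apart from the fits whose shares of all genes are given above, such shares are not given here. Those counts therefore describe the dependence on processing and cannot be set against all genes.

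Calls with age were fewer and less stable. For 24 against 3 months (4 higher, 1 lower), the compared ages alone gave 2 higher, the replicate block 1 higher and 0 lower, and the log2 threshold of 1 gave 0 lower, while leaving out 1 kidney gave 1 to 10 higher and 0 to 1 lower. For 12 against 3 months (3 higher, 2 lower), the log2 threshold of 1 and no filter each gave 1 higher, the ages alone 0 higher and 1 lower, the replicate block 0 higher and 1 lower and DESeq2 9 lower, while leaving out 1 kidney gave 0 to 6 higher and 0 to 8 lower. For 24 against 12 months (3 higher, 1 lower), DESeq2 gave 7 higher and 4 lower, the replicate block over all ages 0 and 0, the block on these ages alone 17 and 8, and the log2 threshold of 1, the ages alone and no filter each 0 lower, while leaving out 1 kidney gave 0 to 1 higher and 0 lower. Here too, shares of all genes called are given only for the fits described above, so the other counts cannot be set against them. The cause was not tested. With 3 kidneys a group, members that were not called may still differ.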
